A study of Saccharomyces cerevisiae with 56 samples.

Results

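Segregant 14a, a haploid offspring of a wine yeast and a laboratory yeast, had most genes of chromosome 8 at a higher transcript level than the mean of the other segregants of the cross. The genes described here are those on chromosome 8 (systematic names starting with YHL or YHR) that have a gene name, without the families RPL, RPS, MRP, HXT, ERG, PAU, COS, FLO, PHO, RPN, RPT, PRE and YRF1 and without ENO2, DSE2, ARO9, SPL2 and STE20. They are 194 genes with 1 probe each, out of 245 chromosome 8 genes on the array and 5197 genes named by the 6245 probes. Both the chromosome and the segregant were picked from these same measurements, so the values of 14a against the other segregants are given as a description, with no test.

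Segregant 14a was set against the other 43 segregants of the cross, with 1 array each, and against both haploid parents, with 2 RNA extracts each and 3 technical arrays per extract. The parent 59A (MATa, ho) is a derivative of EC1118, an industrial wine strain, and S288C (MATalpha, SUC2, gal2) is the laboratory strain whose genome serves as reference. All strains fermented a synthetic grape must (pH 3.3, assimilable nitrogen 425 mg/L) with added para-aminobenzoate. Cells were sampled once 66 g/L of CO2 had been released, at 70% of the fermentation, when growth had ended. Values are log2 intensities, in which the methods put background at 5.3 and saturation at 16. The mating type labels of the parents held in the data, with all 5 a-type genes higher in 59A and all 5 alpha-type genes higher in S288C. 14a rests on a single array, so it has no error of its own. The SD over the other 43 segregants, given beside its values, holds genetic differences as well as array error.

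A haploid cell that gains a copy of 1 chromosome becomes disomic for it. In yeast, the transcripts of most genes on an added chromosome increase about in proportion to the number of copies, while feedback on single genes and the state of the cell can move some of them away from it. On a log2 scale a doubled level is a difference of 1. DNA of the segregants was also hybridised in the study, which described no gain of chromosome 8 in any of them. In 13 segregants it described a second copy of a stretch of the chromosome 16 left arm, translocated onto chromosome 8. For these 13 it reported lower transcripts of respiration and oxidative stress genes. Those DNA data were not analysed here, and a doubled level is used only as a yardstick for transcripts.

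The shift of 14a covered chromosome 8 and no other whole chromosome. The median difference over all 245 chromosome 8 genes was 0.75, and 90.6% of them lay above the mean of the others. The other 43 segregants had chromosome 8 medians between -0.11 and 0.04, and the medians of 14a on the other 15 nuclear chromosomes lay between -0.11 and 0.13. Of 704 pairs of a segregant and a chromosome only 2 had a median over 0.3 in size, namely 14a on chromosome 8 and segregant 26c on chromosome 11, at 0.39. The parents showed no such shift, with chromosome 8 medians of -0.03 in 59A and -0.08 in S288C against the mean of the segregants. On chromosome 16 the distal left arm, the 170 genes beyond SSU1, stood at 0.50 in 14a, against 0.01 over the remaining 245 genes of that chromosome. Another 12 segregants lay between 0.47 and 0.60 on this arm, and the remaining 31 between -0.41 and -0.14, with none in the gap. These 12, called the segregants raised on chromosome 16 here, were found from the values and are no group of the labels. A figure of the study names segregant 7a as a carrier of the second copy. Under the deposited labels 7a stood at -0.28 on this arm, among the 31. By these labels 14a and these 12 are thus not the same set as the study's 13, and the others were not compared. Their medians over the chromosome 8 genes described here lay between -0.10 and 0.04, and 14a set against these 12 alone had a median difference of 0.79. Single genes differed more between the 2 references, and values against the 12 are given beside them.

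**Figure D1:**
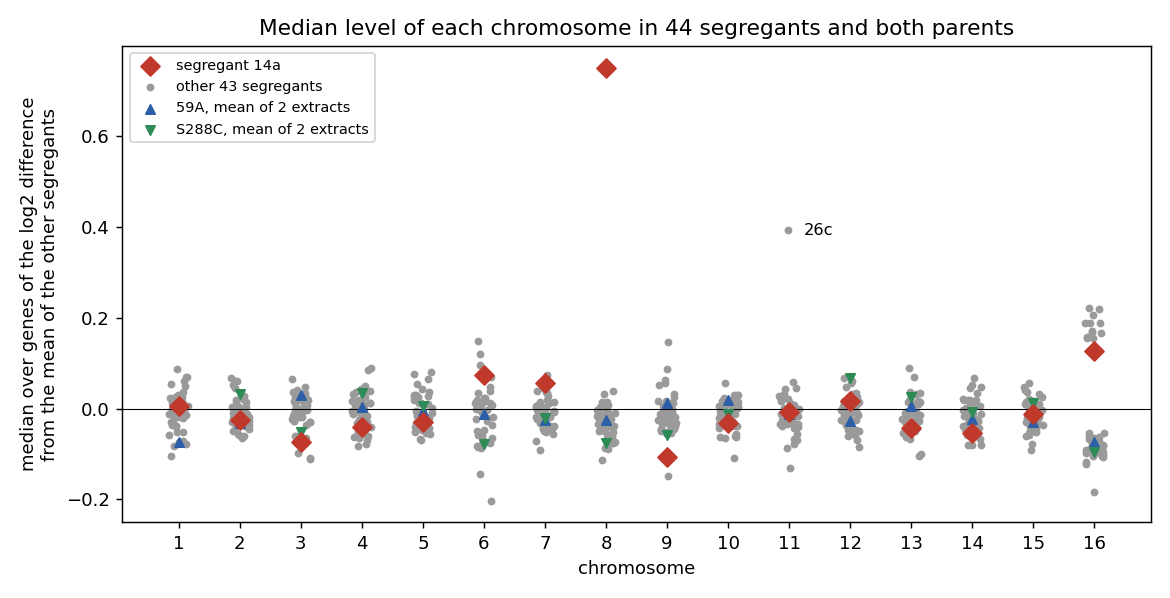
Median log2 difference of the genes of each chromosome (y axis) for 14a (red diamonds), the other 43 segregants (grey points) and the parents (triangles), by chromosome number (x axis). Each segregant is set against the mean of the remaining segregants and each parent against the mean of all 44. On chromosome 8 segregant 14a stands at 0.75, and the highest of the others at 0.04.

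Over the 194 genes the median difference of 14a from the mean of the other 43 was 0.75, a 1.69-fold higher level, with quartiles of 0.44 and 1.14 and a range from -1.22 to 3.48. 14a lay above that mean in 180 genes and below it in 14. It was the highest of the 44 segregants in 92 genes (47.4%) and the lowest in none. Over the genes of the other nuclear chromosomes 14a was highest in 3.56% and lowest in 2.91%, the median difference was -0.01, and the quartiles were -0.33 and 0.32. Among the other 43 segregants, the most members in which 1 segregant was highest was 11. A difference above 0.7 was found in 107 members (55.2%), against 9.24% of the genes elsewhere, and one below -0.7 in 3 members, against 10.5% elsewhere. The rule chose the chromosome for this pattern, so nothing is read from these shares.

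Both arms were shifted. The 28 genes of the left arm had a median difference of 0.91 and the 166 of the right arm one of 0.73. When the members were cut along the chromosome into 6 stretches of 32 or 33 genes, the median difference was 0.89 between ARN2 and GPA1, 0.75 between TIM10 and AAP1, 0.85 between YHK8 and KSP1, 0.80 between SAM35 and EPT1, 0.63 between NDT80 and MTG2 and 0.64 between DBP8 and IMD2. No stretch stood near 0. Those chromosome 8 genes that the rule leaves out had the same sign, with a median of 1.15 over the 26 named genes and 0.49 over the 25 with only a systematic name.

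The difference varied with the level of the gene. The 15 members whose mean over the other 43 lay below 6.3, within 1 log2 unit of background, had a median difference of 0.09, and the 40 between 6.3 and 7.3 one of 0.68. It was 0.81 over the 77 members between 7.3 and 9, 0.80 over the 48 between 9 and 11, and 1.69 over the 12 between 11 and 14. Near background an intensity cannot follow a change in transcript in full, and near saturation it is capped. A doubled level was therefore read only in the 137 members with a mean between 7.3 and 14, called readable here. They had a median difference of 0.83, a 1.77-fold higher level, with quartiles of 0.55 and 1.2.

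**Figure D2:**
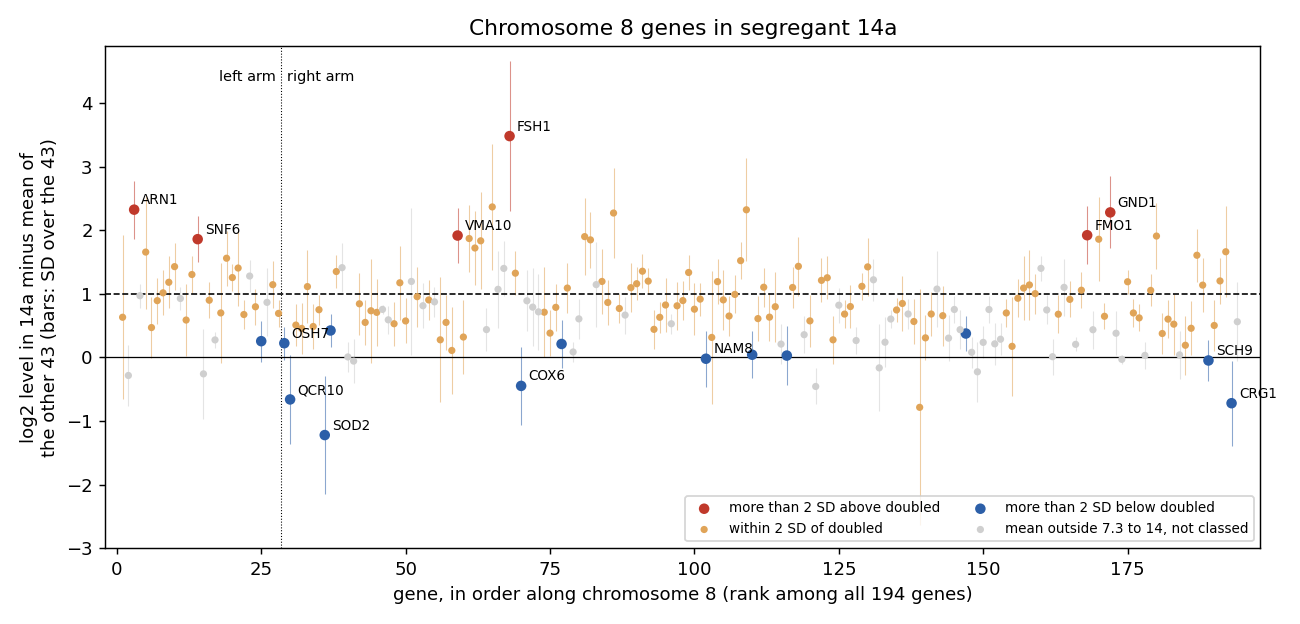
Log2 level in 14a minus the mean of the other 43 segregants (y axis) for the 194 genes in their order along chromosome 8 (x axis, rank), with bars of 1 SD over the 43. The solid line marks no difference and the dashed line a doubled level. Red genes lay more than 2 SD above the dashed line, blue ones more than 2 SD below it, and grey ones had a mean outside 7.3 to 14.

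Of the 137 readable members, 118 (86.1%) lay within 2 SD of a doubled level, 6 lay above it by more than 2 SD and 13 below it. Of the 118, 75 were also more than 2 SD above the mean of the other 43, against 6.03% of the readable genes on other chromosomes, and 43 lay within 2 SD of both, so their spread over the segregants was too wide to tell a doubled level from an undoubled one. By comparison, 5.23% of the readable genes on other chromosomes lay more than 2 SD below the mean of the other 43 in 14a. On either side of it, 11.3% lay more than 2 SD away. The departures of the members from a doubled level were 9.49% below and 4.38% above. The share below was thus higher than the 5.23% elsewhere and the share above lower than the 6.03%, which was not tested. The departures also depended on the reference. Against the 12 segregants raised on chromosome 16, with the SD over them, 3 members lay above (ARN2, KOG1 and SNF6) and 9 below. Of these, ARN2 and KOG1 averaged 5.46 and 7.27 in the 12. CRG1 and MTC6, among the 9 below, averaged 7.22 and 7.20 there. These means were under the limit of 7.3, which was applied to the mean of the 43. A doubled level cannot be read from such a reference. The genes shared with the calls against all 43 were SNF6 above and CRG1, GEP4, MTC6, OSH7 and SCH9 below. The share on either side was between 0.545% and 35.2% in the other 43 segregants, with a median of 3.27%, and 14a had the 6th highest of the 44. Just past the lower limit lay FYV4 and TRR2, at -2.06 and -2.07 SD from a doubled level, and just short of it CHS7 and COX23, at -1.96 and -1.92 SD. Just past the upper limit lay FMO1 and VMA10, at 2.04 and 2.10 SD, and just short of it SSZ1 and DYS1, at 1.96 and 1.80 SD.

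Against all 43, the genes above a doubled level were FSH1, ARN1, GND1, FMO1, VMA10 and SNF6, and 14a was the highest segregant in each. FSH1, which encodes a putative serine hydrolase, stood at 13.08 in 14a. The other 43 segregants ran from 7.36 over a median of 9.65 to 11.79, the extracts of 59A had 9.90 and 9.54, and those of S288C 7.62 and 7.47. The level in 14a was thus above every other strain, 11.2-fold over the mean of the others, with a difference of 3.48 (SD 1.18), the largest of all members. The 12 segregants raised on chromosome 16 ran from 9.28 to 11.79 in FSH1, and against them the difference was 2.19 (SD 0.71), a 4.57-fold higher level that no longer lay more than 2 SD above a doubled one. With the 5 segregants of the same slide as reference FSH1 also lost this call. ARN1, a transporter of iron bound to siderophores, stood at 10.71 in 14a, against 7.72 to 9.49 with a median of 8.24 in the others, 8.94 and 8.93 in 59A, and 7.82 and 8.14 in S288C. The difference from the mean of the others was 2.33 (SD 0.46), a 5.01-fold higher level.

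GND1, the 6-phosphogluconate dehydrogenase that yields NADPH in the pentose phosphate pathway, stood at 15.24 in 14a. In the 42 others with a value it ran from 11.56 over 13.00 to 14.19, and it was 13.50 and 13.52 in 59A and 11.77 and 11.67 in S288C. The value of 14a lies within 1 log2 unit of saturation, where intensities are capped, and its difference was 2.28 (SD 0.56). VMA10, a subunit of the vacuolar proton pump that acidifies the vacuole, stood at 14.66 in 14a, against 12.04 to 14.27 with a median of 12.71 in the others, 12.75 in both extracts of 59A, and 12.90 and 12.38 in S288C. Here too no other strain reached 14a, and the difference was 1.92 (SD 0.44).

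SNF6, a subunit of the SWI/SNF chromatin remodeller, stood at 13.50 in 14a, against 11 to 12.61 with a median of 11.57 in the others, 11.20 and 11.13 in 59A, and 12.25 and 12.39 in S288C. FMO1, a flavin-containing monooxygenase that oxidises thiols, stood at 10.35 in 14a, against 7.77 to 9.48 with a median of 8.40 in the others, 7.87 and 7.75 in 59A, and 8.59 and 8.65 in S288C. Their differences were 1.86 (SD 0.36) and 1.92 (SD 0.45), 3.63-fold and 3.79-fold higher levels. In both genes 14a lay above every other strain. Against the 12 segregants raised on chromosome 16, SNF6 had a difference of 1.95 (SD 0.44) and stayed above a doubled level, while ARN1, GND1, VMA10 and FMO1 had 1.97, 1.82, 1.63 and 1.53 and lay within 2 SD of it.

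Other readable members with large differences stayed within 2 SD of a doubled level. INM1, an inositol monophosphatase, stood at 10.64 in 14a, a difference of 2.37 (SD 0.98), and 3 other segregants were higher. TRA1, the large scaffold subunit that the histone acetyltransferase complexes SAGA and NuA4 share, stood at 10.73, a difference of 2.32 (SD 0.81) that put it above all others. DYS1, which makes deoxyhypusine on the translation factor eIF5A, stood at 12.38, a difference of 2.27 (SD 0.71), with 1 segregant higher. For EGD2, a subunit of the nascent polypeptide-associated complex on ribosomes, the difference was 1.91 (SD 0.53), and for PAN5, a reductase of pantothenate synthesis, 1.90 (SD 0.60). SSZ1, of the ribosome-associated chaperone complex, had a difference of 1.85 (SD 0.43). In EGD2, PAN5 and SSZ1 14a was the highest of the 44. The differences of INM1, DYS1 and PAN5 from the 12 segregants raised on chromosome 16 were 1.54, 1.66 and 1.28, and the 3 segregants above 14a in INM1 were all among the 12.

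**Figure D3:**
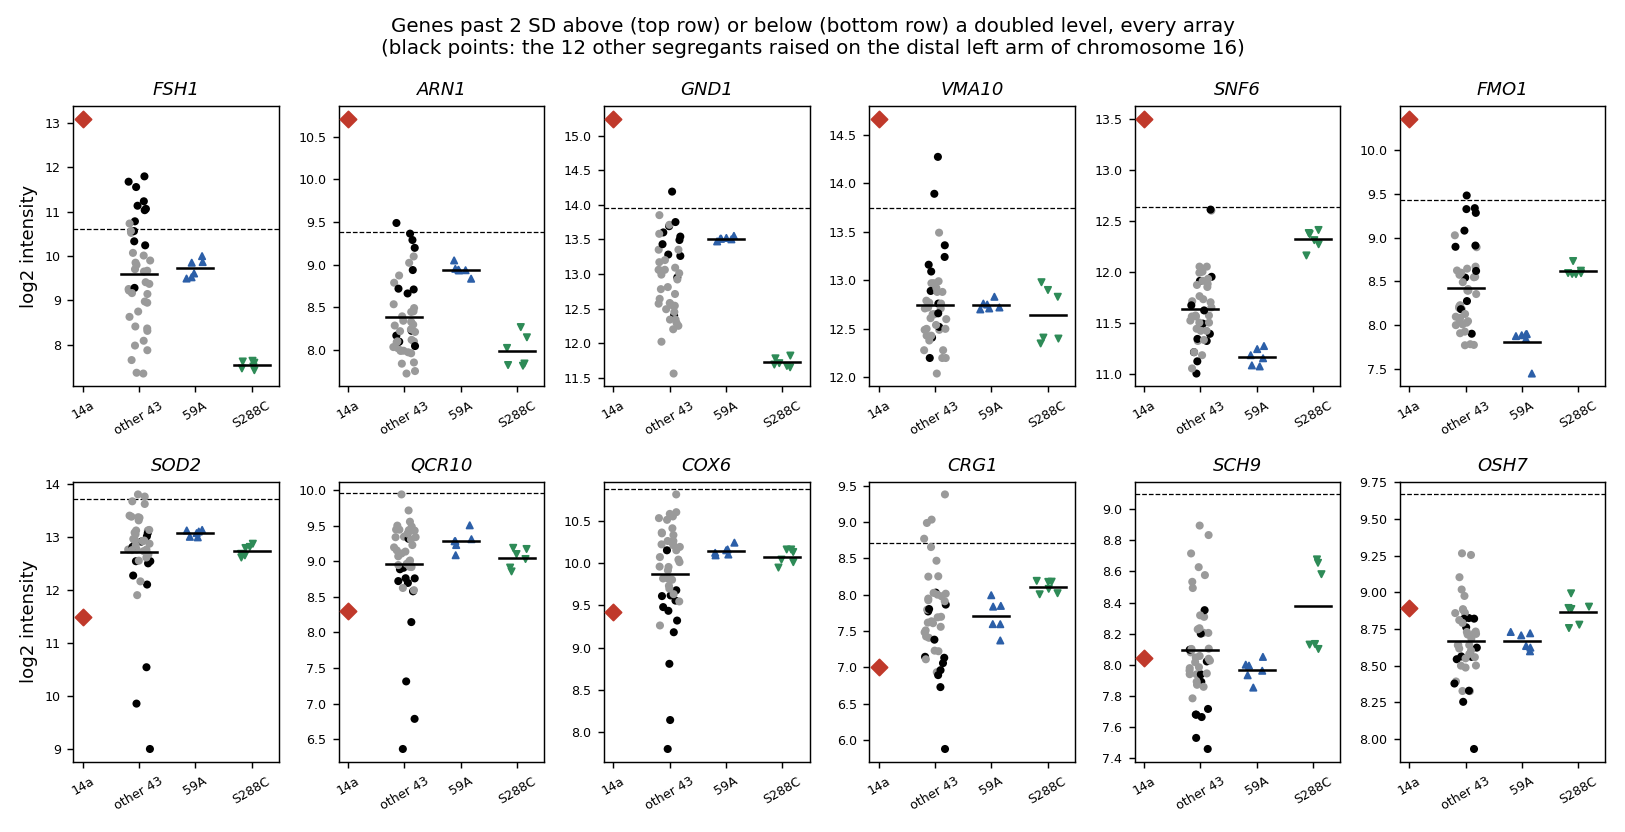
Log2 intensity (y axis) of 12 genes on every array, for 14a, the other 43 segregants and the 6 arrays of each parent (x axis), with black bars for group means, black points for the 12 segregants raised on chromosome 16 and a dashed line 1 log2 unit above the mean of the other 43. In the top row 14a lies above all other arrays. In the bottom row it lies under the dashed line, and in all 6 genes but OSH7 it is also under the mean of the other 43.

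The 13 genes below a doubled level were SOD2, CRG1, QCR10, COX6, SCH9, NAM8, TRR2, GEP4, FYV4, OSH7, ETP1, MTC6 and DIA4. SOD2, the manganese superoxide dismutase of the mitochondrial matrix, stood at 11.50 in 14a. The other 43 ran from 9.01 over a median of 12.92 to 13.81, and the parents had 13.07 and 13.08 (59A) and 12.66 and 12.83 (S288C). 14a was thus below both parents and 4th lowest of the segregants, and its difference of -1.22 (SD 0.92) was the lowest of all members. The 3 segregants lower than 14a were all raised on chromosome 16, and against those 12 the difference was -0.44 (SD 1.36). QCR10, a subunit of the bc1 complex of the respiratory chain, stood at 8.30 in 14a, against 6.36 to 9.94 with a median of 9.11 in the others, 9.36 and 9.20 in 59A, and 9.15 and 8.93 in S288C. COX6, a subunit of cytochrome c oxidase, stood at 9.43 in 14a, against 7.80 to 10.81 with a median of 9.96 in the others, 10.12 and 10.16 in 59A, and 10.15 and 10.00 in S288C. Both lay under all 4 parental extracts but inside the range of the segregants, with differences of -0.66 (SD 0.69) and -0.45 (SD 0.61). With the 12 segregants raised on chromosome 16 as reference these turned to 0.03 (SD 0.93) and 0.20 (SD 0.67), and none of SOD2, QCR10 and COX6 lay below a doubled level by more than 2 SD.

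CRG1, a methyltransferase known from resistance to cantharidin, stood at 7.00 in 14a, against 5.88 to 9.38 with a median of 7.69 in the others, 7.52 and 7.89 in 59A, and 8.18 and 8.04 in S288C. It is one of the last genes of the right arm, and its difference was -0.72 (SD 0.67), against -0.22 (SD 0.60) with the 12 raised segregants as reference. SCH9, a protein kinase that TORC1 activates and that promotes growth, stood at 8.05 in 14a, against 7.46 to 8.89 with a median of 8.04 in the others, 8.00 and 7.93 in 59A, and 8.12 and 8.64 in S288C. It sat in the middle of the segregants, at a difference of -0.05 (SD 0.33), and was the farthest below a doubled level when counted in SD (-3.20). OSH7, a carrier of phosphatidylserine between membranes, followed at -3.0 SD, with 8.89 in 14a, 7.93 to 9.27 and a median of 8.64 in the others, 8.72 and 8.62 in 59A, and 8.89 and 8.84 in S288C. Its difference was 0.22 (SD 0.26). Against the 12 raised segregants SCH9 and OSH7 had 0.19 (SD 0.28) and 0.36 (SD 0.27).

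The other 7 genes of this set had differences between -0.02 and 0.42. NAM8, a splicing factor of the U1 particle, had a difference of -0.02 (SD 0.44), TRR2, the mitochondrial thioredoxin reductase, one of 0.03 (SD 0.47), and GEP4, a phosphatase of cardiolipin synthesis, one of 0.04 (SD 0.37). In FYV4, ETP1, MTC6 and DIA4, the last being the mitochondrial seryl-tRNA synthetase, the differences were 0.21, 0.26, 0.38 and 0.42. These 4 values lay between no difference and a doubled level. When the median difference of the members, 0.75, was used in place of 1, 5 of the 13 stayed below (CRG1, OSH7, QCR10, SCH9 and SOD2), no others joined them, and the number above became 18. With background subtracted on the linear scale 7 stayed below.

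SPS100, a protein of the spore wall, and MSC7 were also among the 10 lowest differences of readable members but did not pass the limit, since their levels differ widely over the cross. SPS100 stood at 10.56 in 14a, against 7.91 to 14.64 with a median of 11.95 in the others, a difference of -0.78 with an SD of 1.85, the largest of any member. It turned to 1.13 (SD 1.37) against the 12 segregants raised on chromosome 16. For MSC7 the difference was 0.11 (SD 0.68). Against the 12 it was -0.06 (SD 0.46), and there MSC7 lay more than 2 SD below a doubled level.

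Genes of mitochondria were the group with the lowest shift among the lists of known functions that do not rest on background values. Of 25 measured members 22 lay above the mean of the others, the median difference was 0.42, and 5 were highest in 14a. Over all 194 members 92.8% lay above that mean, 47.4% were highest in 14a and the median was 0.75. The counts of this and every further list of chromosome 8 genes are to be read against these shares. Of the 20 readable genes of the list 6 lay below a doubled level (SOD2, QCR10, COX6, TRR2, GEP4 and DIA4) and none above. Over all 137 readable members 9.49% lay below and 4.38% above. The list was chosen with earlier results known, so nothing is read from this count. Against the 12 segregants raised on chromosome 16 the median was 0.49. Of the 6 genes only GEP4 stayed below a doubled level, and COX23 joined it. Other members of the list were near or above it, as BAT1, the mitochondrial branched-chain aminotransferase, with 1.66 (SD 0.72), and SAM35, which inserts proteins into the outer membrane, with 1.34 (SD 0.28). COX23, needed to assemble cytochrome c oxidase, had 0.28 (SD 0.38).

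By their median the partners of QCR10 and COX6 on other chromosomes stood lower still in 14a, but QCR8, at -0.08, stood above both. All 15 measured subunits of cytochrome c oxidase and of the bc1 complex outside chromosome 8 were below the mean of the other 43, with a median of -1.53, and 13 were more than 0.7 below it, against 10.5% of the genes on other chromosomes. COX4 stood at 6.95 in 14a, against 6.66 to 10.79 in the others, a difference of -2.56 (SD 0.90). COX5A, the isoform of its subunit used under aeration, stood at 8.53, against 8.41 to 11.81, a difference of -2.08 (SD 0.70). COX13 had a difference of -2.0 (SD 0.86). Each lay within the range of the other segregants, and only COX9 was lowest in 14a. The 2 chromosome 8 members of these complexes, at -0.66 and -0.45, thus stood above the median of their partners and below 0. The 12 segregants raised on chromosome 16 were themselves lower in these partners than the other 31, by a median of -0.85. Against these 12 the median of 14a was -0.94, COX4 had -1.65 (SD 1.00), and 14 of the 15 partners were still below the mean. Whether the lower level of the partners and the small differences of QCR10, COX6 and SOD2 belong together was not tested.

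Subunits of the vacuolar proton pump on other chromosomes were measured in 12 genes, with a median difference of 0.55 in 14a, and 10 of 12 were above the mean of the others. VMA10, at 1.92, was above all of them. VMA13, a gene of chromosome 16 outside the raised stretch, had 1.72 (SD 0.62) and was highest in 14a. VMA11, inside that stretch, had 1.03 (SD 0.69), and VMA8 had 0.90 (SD 0.42). Against the 12 segregants raised on chromosome 16 the median of the list was 0.14, with 1.12 (SD 0.33) in VMA13, 0.06 (SD 0.41) in VMA11 and 0.44 (SD 0.34) in VMA8.

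**Figure D4:**
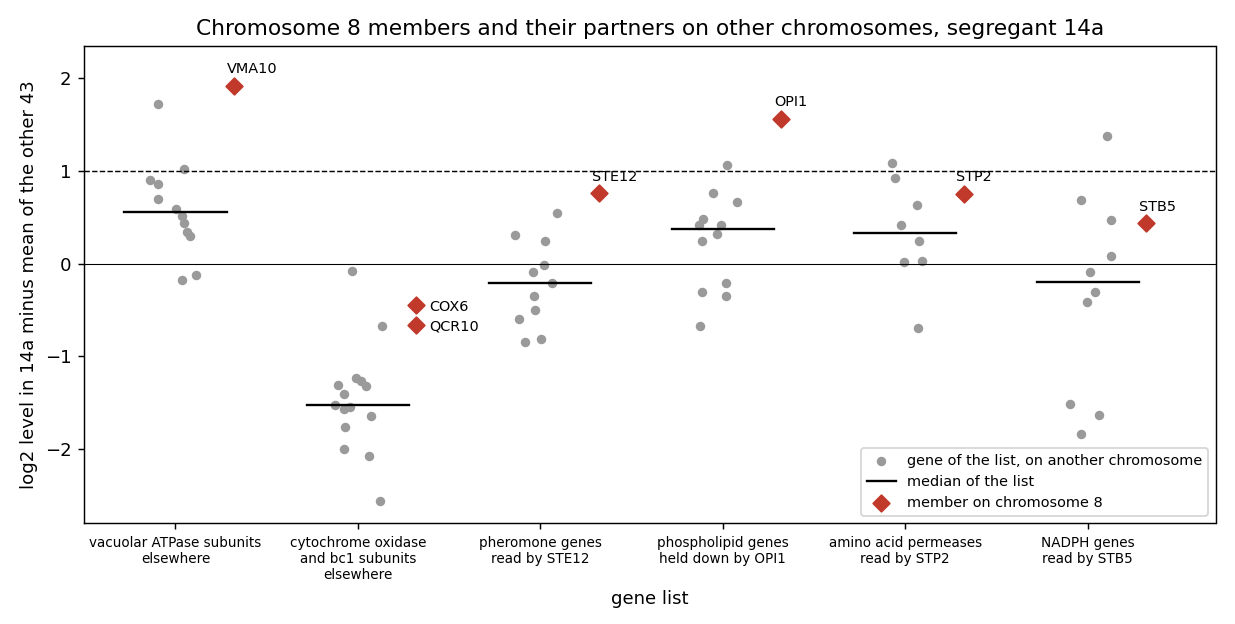
Log2 level in 14a minus the mean of the other 43 segregants (y axis) for 6 lists of genes on other chromosomes (grey points, black bars for medians) and the chromosome 8 members linked to each list (red diamonds). Respiratory partners have a median of -1.53 and vacuolar ATPase partners one of 0.55.

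Regulators on chromosome 8 were shifted upward like most members, but the genes listed as their targets did not share 1 direction. All 8 transcription factors lay above the mean of the others, with a median of 0.81 and a range from 0.44 to 1.56, and 4 were highest in 14a. Over all members 92.8% lay above it and the median was 0.75. OPI1, the repressor of phospholipid genes, stood at 10.69 in 14a, against 8.18 to 10.15 in the others, 9.21 and 9.13 in 59A, and 10.01 and 9.68 in S288C, a difference of 1.56 (SD 0.44). Of 12 genes listed as phospholipid and related genes held down by OPI1, 8 lay above the mean of the others in 14a. Their median was 0.37, with ITR1, an inositol transporter, at 1.07 (SD 0.74), CHO2 at 0.76 (SD 0.50) and CHO1 at -0.67 (SD 0.44). Whether OPI1 holds down each of the 12 was not tested. RIM101, a repressor that responds to alkaline pH, had a difference of 1.31 (SD 0.29), while SKN7, of the response to oxidative stress, had 0.50 (SD 0.40).

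STE12, which activates genes of the mating pheromone response, stood at 8.90 in 14a, a difference of 0.76 (SD 0.41). Of 11 pheromone genes 3 lay above the mean of the others, and the median was -0.21, with FUS2 at -0.85 (SD 0.53), PRM5 at -0.81 (SD 0.73) and FAR1 at -0.59 (SD 0.54). STP2, an activator of amino acid permease genes, had a difference of 0.75 (SD 0.24). Of 8 permease genes with a value in 14a 7 lay above the mean, with a median of 0.33, and the largest sizes were in MUP1 with 1.08 (SD 0.67), BAP3 with 0.92 (SD 1.25) and TAT1 with -0.69 (SD 0.39). STB5, an activator of NADPH genes, had 0.44 (SD 0.30) at a mean below 7.3. Of its 10 targets 4 lay above the mean, and the median was -0.19, with GND2, the minor isoform of GND1, at -1.84 (SD 1.22), GCY1 at -1.63 (SD 0.78) and GOR1 at -1.51 (SD 0.67). Their spread over the other segregants is wide, and the median of all probes was 0.00. With the 12 segregants raised on chromosome 16 as reference the medians were 0.16 for the phospholipid genes, -0.13 for the pheromone genes, 0.53 for the permeases and -0.17 for the STB5 targets, and GND2 had -0.54 (SD 1.00).

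Genes of carbon and redox metabolism had a median difference of 1.35, and 13 of 14 lay above the mean of the others, against 92.8% of all members. This median was 1.04 against the 12 segregants raised on chromosome 16. Besides GND1, INM1 and FMO1, the NADPH dehydrogenase OYE2 had a difference of 1.86 (SD 0.66), NCP1, the reductase that feeds electrons to cytochrome P450 enzymes, 1.72 (SD 0.58), and DOG2, a phosphatase of 2-deoxyglucose-6-phosphate, 1.83 (SD 0.76). DOG1, whose sequence is very similar to DOG2, had 0.44 at a mean of 6.44, and the probes of the pair can share signal. DOG2 had 1.07 (SD 0.66) against the 12. SOD2 and TRR2 were the 2 of the list below a doubled level.

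Metal and solute transporters had a median of 1.19, and all 10 lay above the mean of the others, against 92.8% of all members. MUP3, a methionine permease, stood at 12.13 in 14a, against 8.95 to 12.92 in the others, a difference of 1.66 (SD 0.90), and of 0.98 (SD 0.65) from the 12 segregants raised on chromosome 16. DUR3, which takes up urea and polyamines, had 1.41 (SD 0.60), and SMF2, a manganese transporter, 1.33 (SD 0.35). CUP1-1 and CUP1-2, nearly identical metallothionein genes in a repeat, stood at 15.36 and 15.28 in 14a, against means of 14.57 and 14.56 in the others. Their probes can share signal, and both are too near saturation for a doubled level to be read. At the left tip the differences were 0.63 (SD 1.29) in ARN2, another siderophore transporter, and -0.28 (SD 0.48) in ECM34 at a mean of 6.3. CBP2, a splicing factor of mitochondria, had 0.97 (SD 0.19) at a mean below 7.3, so it was not readable. VMR1, a vacuolar ABC transporter, had 0.47 (SD 0.47). ARN2 stood at 8.01 in 14a and averaged 5.46, near background, in the 12 segregants raised on chromosome 16, a difference of 2.56 (SD 0.44). Of the segregants not raised there, 12 were lower than 14a in ARN2 and 17 higher, so 14a was not raised against them. In ECM34, near background, 4 of them were lower and 27 higher. With ARN1 and MUP3 the left tip ran from -0.28 to 2.33, with a median of 0.80 that does not hold for each gene.

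Genes of amino acid and nucleotide synthesis had a median of 0.93, and all 12 lay above the mean of the others, against 92.8% of all members. Against the raised 12 the median was 0.71, and 11 lay above their mean. None of the readable genes of the list left the limits around a doubled level. DAP2, a dipeptidyl aminopeptidase, and PUT2, of proline use, had 0.57 (SD 0.35) and 0.28 (SD 0.98), while DYS1 and BAT1 had the values given above. Genes of ribosome assembly lay close together. All 16 were above the mean, the median was 0.85, and none of the 10 readable ones left the limits, with BCD1, which assembles box C/D particles, at 0.32 (SD 0.58), UTP9 at 0.52 (SD 0.48), DBP8, an RNA helicase, at 0.68 (SD 0.30) and RRP4, of the exosome, at 0.77 (SD 0.23).

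Among 33 subunits of stable complexes 23 were highest in 14a, against 47.4% of all members. The median was 0.82, with QCR10 and COX6 below a doubled level and SNF6 and VMA10 above it. The genes of transcription and chromatin had a median of 0.79, and 10 of 16 were highest in 14a, with NAM8 at the low end and TRA1, SRB2, a Mediator subunit at 1.87 (SD 0.52), and SNF6 at the high end. Genes of kinases and signalling had a median of 0.90, and 9 of 13 were highest in 14a. SCH9 was the 1 member of that list below a doubled level, while KOG1, a subunit of the TORC1 complex, had 1.19 (SD 0.19). PPE1, PTC7 and YCK1 had 0.44, 0.63 and 0.57. Genes of secretion and the cell wall had a median of 0.69, and 13 of 19 were highest in 14a, with SFB3, a cargo adaptor of COPII vesicles, at 1.52 (SD 0.29), GGA2, a Golgi adaptor, at 1.43 (SD 0.47), and CHS7, which exports chitin synthase from the endoplasmic reticulum, at 0.31 (SD 0.35).

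Genes of cell division and DNA replication had a median of 0.81, and 9 of 11 were highest in 14a, although only 5 were readable. DMA1, a ubiquitin ligase of the spindle checkpoint, had 1.25 (SD 0.34), DNA2, a helicase and nuclease of replication, 1.14 (SD 0.55), CDC12, a septin, 1.10 (SD 0.32), and ORC6, of the origin recognition complex, 0.68 (SD 0.22). Genes of meiosis and sporulation differed from all these lists in level, with 1 of 10 readable and a median difference of 0.05. SPO11, which cuts DNA in meiosis, stood at 5.88 in 14a, against 5.38 to 5.96 in the others. A doubled level cannot be read from such values.

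The parents gave a comparison that took no part in choosing these genes, and it asked which of them differ between the wine and the laboratory strain. In limma's test of 2 extracts against 2, with adjustment over 5969 probes, 38 of 188 members tested (20.2%) were higher in 59A and 20 (10.6%) were lower, at an adjusted p under 0.01 and a log2 difference above 0.7 in size. Over all probes 12.8% were higher and 12.4% lower in 59A, 25.2% in all, against 30.9% of the members. The 2 extracts per strain are the only replicates. The p-values rest on the spread between extracts, which limma moderates for each gene toward a value pooled over the probes tested.

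Of the members higher in 59A, FSH1 had the largest difference, 2.17 ± 0.14 (SE, adjusted p = 0.000154), a 4.51-fold higher level. YHI9 stood at 8.07 and 7.89 in 59A, against 5.95 and 5.78 in S288C, with a difference of 2.12 ± 0.10 (adjusted p = 6.68e-05). ARG4, argininosuccinate lyase of arginine synthesis, stood at 9.69 and 9.72 in 59A, against 7.87 and 7.77 in S288C, a difference of 1.89. GND1 and DOG2 followed with 1.79 and 1.56. In none of these did the extracts of the parents overlap. Genes of carbon and redox metabolism were higher in 59A in 9 of 14 and lower in 1, with a median difference of 0.88, against -0.01 over all probes tested, and genes of amino acid and nucleotide synthesis in 6 of 11, with a median of 0.70.

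Of the members lower in 59A, SPS100 stood at 10.17 and 9.29 in 59A, against 14.29 and 13.89 in S288C, a log2 difference of -4.36 ± 0.30 (SE, adjusted p = 0.000204), a 20.6-fold higher level in S288C. RIM4, an RNA-binding regulator of meiosis, stood at 6.53 and 6.46 in 59A, against 8.23 and 8.52 in S288C, a difference of -1.88. RSC30, of the RSC chromatin remodeller, BCD1 and MUP3 had differences of -1.60, -1.58 and -1.54. The extracts of the strains did not overlap in these genes either. Among genes of transcription and chromatin 7 of 16 were lower in 59A and 3 higher, with a median of -0.55. GPA1, the G protein subunit of the pheromone response, was higher in 59A, at 9.29 and 9.46, against 8.20 and 8.00 in S288C.

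Against the parents 14a was above all 4 extracts in 144 of the 194 genes (74.2%) and below all of them in 8. For genes on other nuclear chromosomes these shares were 31.5% and 32%. The median of the 137 readable members was 0.86 above 59A and 0.95 above S288C. The other 43 segregants lay at -0.01 against the mean of the parental levels, so they stood in the middle between the parents as a group, and 14a stood 0.86 above it. If both parental levels are summed on the linear scale, as for a cell with 1 copy of each allele read at its parent's level, the median of 14a minus the sum was -0.14, with quartiles of -0.57 and 0.29, and 56 of 137 lay above the sum. This median differed with the parental comparison. Over members of any level it was 0.04 for the 38 higher in 59A, -0.63 for the 20 lower in 59A and -0.28 for the 130 not called. Those 20 had a median of -0.03 against S288C.

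Single genes lay far from the parental levels. FSH1 stood 3.36 above 59A and 5.53 above S288C, and 3.07 above their sum. INM1 stood 1.88 above the sum, DYS1 1.5 and GND1 1.36, while SPS100 stood 0.83 above 59A and had a difference of -3.53 from S288C. SOD2 minus the sum was -2.43 and QCR10 minus the sum -1.86. Which parental alleles 14a carries was not tested.

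**Figure D5:**
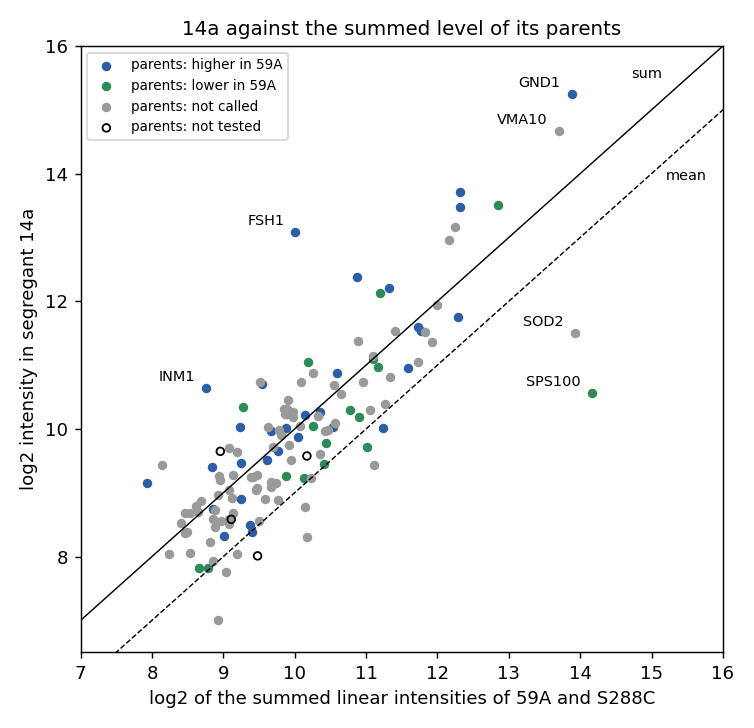
Log2 intensity in 14a (y axis) against the log2 of the summed linear intensities of 59A and S288C (x axis) for the 137 readable genes, coloured by the comparison of the parents. The solid line marks equality with the sum and the dashed line equality with the mean of the parents. The median difference from the solid line is -0.14, with FSH1 at 3.07 and SOD2 at -2.43.

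The members above a doubled level differed between the parents in 5 of 6 genes, 3 of them higher in 59A (FSH1, ARN1 and GND1) and 2 lower (SNF6 and FMO1), and those below it in 4 of 13, with TRR2, FYV4 and DIA4 higher in 59A and MTC6 lower. Of the 114 tested genes near a doubled level 40 differed. Over all members tested 30.9% differed and over all probes 25.2%, near the 30.8% of the genes below and the 35.1% of those near it. The groups are small, they rest on all 43 as reference, and the difference between these shares was not tested. The genes above a doubled level had a median mean level of 10.62 over the other segregants and those below it one of 8.29, against 8.92 for the genes near it.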

How the data were processed

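Transcripts were measured by the authors on 56 one-colour Agilent arrays, 7 slides of 8. Each deposited value is the log2 of a spot's median intensity, read with GenePix and quantile normalized by the authors with limma under R 2.13.1. The methods count fewer arrays in this step than the 56 deposited. Array medians ran from 8.24 to 8.28, and such scaling hides any shift common to all transcripts. The genome build of the probes is not given in the sources used here, and the annotation of assembly R64 was used for nothing but names and gene order. Of the named probes 5144 had current symbols, 51 older ones and 2 could not be matched. Of 194 members 27 lacked a value in some segregant and none in 14a. Missing values were not filled in.

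Technical arrays were averaged per extract. 14a was set against the mean and SD of the other 43 segregants, with 2 SD around a difference of 1 as limits, over members with a mean between 7.3 and 14. For the parents limma 3.58.1 (R 4.3.3) was used, with Benjamini-Hochberg adjustment over 5969 probes with values on all 12 arrays. The prior had 3.36 degrees of freedom. Both steps were tested on simulated data. Python 3.11.15, numpy 2.4.6, pandas 2.3.3 and matplotlib 3.10.9 were used.

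Genes named were the 10 highest and 10 lowest differences of readable members, up to 4 per list farthest from doubling, 5 parental differences each way, the left tip, up to 3 per partner list and those beside the limits. Other names, such as SAM35, KOG1, SMF2, NCP1, OYE2, COX9, SPO11 and GPA1, were chosen after their values were seen. Members and lists were chosen with earlier results of these data known. Alternatives were other references (the 12 segregants raised on chromosome 16 had a median above 0.3 over its distal left arm), background subtraction, level filters, other limits, block fits and leaving out each extract.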

Additional observations from a re-analysis of the deposited data

How the results depend on the processing

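The median difference of the 194 genes in 14a was 0.75. It was 0.74 with the 5 segregants of the same slide as reference, 0.75 under 3 other alternatives, 0.91 with background subtracted on the linear scale, 0.83 over readable members only and 0.79 against the 12 segregants raised on chromosome 16. 14a was highest in 92 genes, and in 145 when set only against the 5 segregants of its slide, where fewer strains compete. Genes below a doubled level numbered 13, but 5 with the members' median in place of 1, 29 with a fixed limit of 0.5, 35 with no filter on level and 7 with background subtracted. They numbered 9 against the 12 segregants raised on chromosome 16. CRG1, OSH7 and SCH9 were below under all settings tried. For CRG1 the setting with those 12 cannot be read, since its mean of 7.22 there lay under the readable levels. Genes above numbered 6, but 18 with the members' median, 21 with the fixed limit and 3 against the 12 segregants raised on chromosome 16, and SNF6 was above in every setting. With the 5 segregants of the same slide EGD2 and SRB2 took the place of FSH1 and FMO1. The reference of 12 and one without segregants 9c and 13b, which lack many values, were chosen after the data were seen. Without 9c and 13b there were 13 below and 6 above, with SSZ1 in place of FMO1. The parental comparison with replicate numbers as a block called the same 38 and 20 members, and the pairing is not given by the labels (correlation of deviations 0.437). Leaving out 1 extract gave 36 to 40 members higher and 18 to 21 lower in 59A. The difference of SPS100 turned to 1.13 against the 12. The single array of 14a and the range between background and saturation limit all its values.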
